A study of Mus musculus with 6 samples.

Results

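The genes described here are 7 intermediate filament genes, the simple epithelial keratins Krt7, Krt8, Krt18 and Krt19 and the mesenchymal filament genes Vim, Nes and Des. They were taken as every probe set of the deposited array table that carries 1 of these names as its only gene symbol, which gave 14 of 45037 probe sets, for 7 of 18193 named genes. The members were chosen with earlier results from these arrays known, in which Krt8 and Krt18 stood far above control in both treated fractions; how much each contrast weighed in the choice is not recorded. The values of the members against control are therefore a description and carry no test. The p-values between the treated fractions assume that this comparison did not choose the members.

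The cells were cultured dermal fibroblasts of newborn mice at passage 4, measured on 6 Affymetrix mouse arrays with total RNA. The mice came from males of a mixed 129/ICR stock, bred to BL6 females; the strain label of the arrays reads B6. The males carried an X-linked GFP transgene under the chicken beta-actin promoter and a CMV enhancer. All groups began as cells sorted for lack of GFP, in which the transgene lies on the inactive X chromosome. GFP-positive cells (2 arrays) were treated with 4 μM decitabine (5-aza-2'-deoxycytidine), which blocks the upkeep of DNA methylation, for 48 hours, recovered for 24 hours, and were then sorted a further time for cells that had switched GFP on. GFP-negative cells (2 arrays) had the same treatment and sort, and stayed dark. Control cells (2 arrays) were untreated over the same times and were not sorted again, so drug and second sort cannot be told apart. The sex label of control replicate 2 reads mix, and that of the 5 other arrays female. By the series' own text the drug acts passively, and treated cells are a mixture. In RNA of a whole culture, more cells with a transcript and more transcript per cell cannot be told apart.

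Intermediate filaments are rope-like cytoskeletal fibres built from a large family of coiled-coil proteins. Keratins assemble only as pairs of an acidic (type I) and a basic (type II) chain. Krt8 (type II) and Krt18 (type I) form the first keratin pair of the embryo and the main pair of simple epithelia, Krt7 is a further type II keratin of ducts and simple epithelia, and Krt19 is a small type I keratin. Vimentin (Vim) is the filament protein of fibroblasts and other mesenchymal cells, nestin (Nes) is a long filament protein of progenitor cells that assembles with vimentin, and desmin (Des) is the filament protein of muscle. Decitabine lowers methylation at CG dinucleotides, so the CG content around each start site is given first.

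The following windows run from 250 bases before to 50 bases after the annotated start, on the strand of the gene, from RefSeq on build GRCm38.p6. Of the 7 genes, 6 had a window. The pair Krt8 and Krt18, whose signals moved together, Krt7, and Vim, whose signal hardly moved, are printed. The Krt8 window is chr15:102004293-102004592 (- strand), that of Krt18 is chr15:102027966-102028265 (+ strand), that of Krt7 is chr15:101412153-101412452 (+ strand) and that of Vim is chr2:13574061-13574360 (+ strand). CG dinucleotides are in capitals.
Krt8: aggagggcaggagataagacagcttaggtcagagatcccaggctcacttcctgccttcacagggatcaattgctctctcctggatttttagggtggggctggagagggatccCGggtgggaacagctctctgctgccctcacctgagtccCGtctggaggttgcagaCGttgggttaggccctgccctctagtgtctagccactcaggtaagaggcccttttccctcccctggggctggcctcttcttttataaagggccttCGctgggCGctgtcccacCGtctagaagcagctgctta
Krt18: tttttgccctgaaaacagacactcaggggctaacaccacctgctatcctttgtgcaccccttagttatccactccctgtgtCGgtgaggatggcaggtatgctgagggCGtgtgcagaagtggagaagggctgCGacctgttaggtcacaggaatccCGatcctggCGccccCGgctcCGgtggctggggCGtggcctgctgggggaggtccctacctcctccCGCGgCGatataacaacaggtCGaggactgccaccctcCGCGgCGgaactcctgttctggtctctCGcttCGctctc
Krt7: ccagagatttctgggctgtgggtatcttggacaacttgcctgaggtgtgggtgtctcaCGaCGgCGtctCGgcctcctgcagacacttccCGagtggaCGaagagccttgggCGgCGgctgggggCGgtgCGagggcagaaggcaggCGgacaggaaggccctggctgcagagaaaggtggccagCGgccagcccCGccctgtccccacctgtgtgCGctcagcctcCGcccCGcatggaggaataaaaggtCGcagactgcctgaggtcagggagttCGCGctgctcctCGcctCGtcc
Vim: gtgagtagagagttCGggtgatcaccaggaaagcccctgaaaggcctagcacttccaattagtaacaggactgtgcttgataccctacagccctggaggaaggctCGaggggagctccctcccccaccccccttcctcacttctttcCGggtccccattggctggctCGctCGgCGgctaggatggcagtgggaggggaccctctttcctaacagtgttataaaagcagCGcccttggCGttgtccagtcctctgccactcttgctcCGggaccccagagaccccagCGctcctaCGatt

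The Krt8 window held 6 CG dinucleotides, near the median of 7 over all 32851 RefSeq windows of this length, and 56.4% of windows had at least as many. The Krt18 window held 17, with 31.4% of windows at that number or above, and the Krt7 window held 21, with 24.8% at or above. The Vim and Des windows held 11 each and the Nes window 18. The high-signal pair Krt8 and Krt18 thus differed in CG number, and Krt8 had the fewest of the 6 genes. Searched on both strands, the letters TATAAA were found in the Krt8 window, as 2 overlapping matches, 1 on each strand, at the annotated start, and in the Vim window, starting 32 bases before it, but not in the other 4 windows; 13.62% of all windows hold these letters. The letters GGGCGG were found 4 times in the Krt7 window and 2 times each in those of Nes and Des, and in 35.66% of all windows. The letters TGANTCA were in none of the 6 windows and in 7.81% of all.

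**Figure D1:**
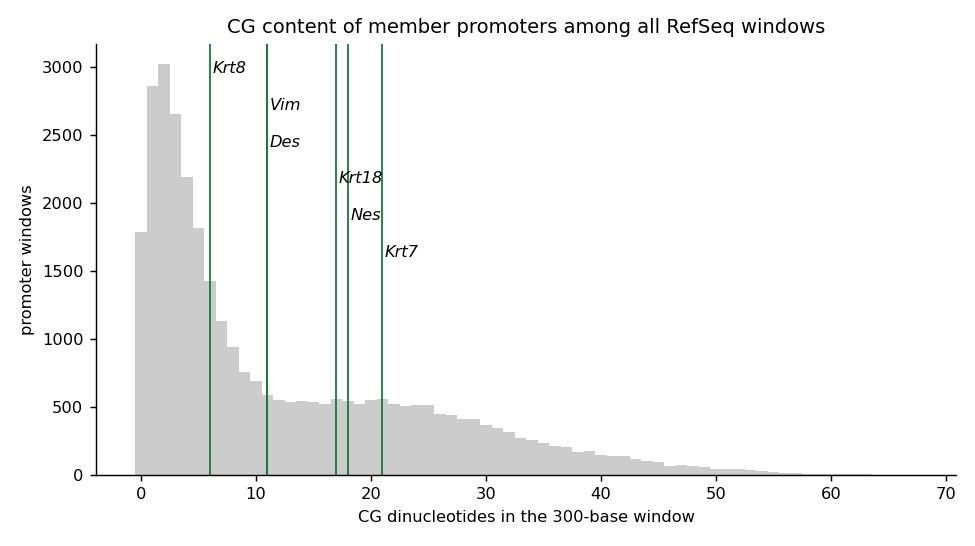
Number of CG dinucleotides in 300-base windows around annotated start sites. Grey bars count all 32851 RefSeq windows and vertical lines mark the 6 genes, from 6 in Krt8 to 21 in Krt7.

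Arrays of replicate number 1 and of replicate number 2 differed in a way that touches the dim genes. After scaling each array to a trimmed mean of 500, a 25th percentile of 38.7 to 42.6 was found on replicate 1 arrays, against 19.2 to 22.6 on replicate 2 arrays. Before scaling, GFP-positive replicate 2 and GFP-negative replicate 2 had trimmed means of 50.5 and 62.0, against 500 on the others, and were multiplied by 9.90 and 8.06. Differences are therefore given within each replicate number as well, as log2 of scaled signal plus an offset of 30.6. The offset understates changes of dim probe sets. Of the 14 member probe sets, 13 reached the mean signal of 67.7 needed to enter the fit of 27022 probe sets; the one left out is the dimmest of Nes. The label of dermal fibroblasts was checked on 12 fibroblast markers, all of which had a lower mean log2 signal in both treated fractions than in control. Col1a2, a collagen I chain, read 30571 to 40731 on the 6 arrays, while Dcn (decorin, a matrix proteoglycan) read 1496 and 203 in GFP-positive cells, 2720 and 334 in GFP-negative cells, and 12516 and 2957 in control cells.

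Krt8 signals were high in both treated fractions and low in control. Its brightest probe set, 1420647_a_at, had scaled signals of 1405 and 1832 in GFP-positive cells, 852 and 1085 in GFP-negative cells, and 93.9 and 126 in control cells. The groups did not overlap, and they stood in the order GFP-positive, GFP-negative, control. The log2 difference from control was 3.55 ± 0.29 (SE, n = 2 arrays a group) in GFP-positive cells, with 3.53 within replicate 1 and 3.57 within replicate 2. In GFP-negative cells it was 2.83 ± 0.29, with 2.83 within each replicate number. The other Krt8 probe sets are of the x_at type, which can also bind transcripts of related genes, and gave the same order. Probe set 1423691_x_at had 1219 and 1512 in GFP-positive cells, 791 and 898 in GFP-negative cells, and 19.5 and 13.1 in control cells. Probe set 1435989_x_at had 911 and 1712 in GFP-positive cells, 658 and 669 in GFP-negative cells, and 25.4 and 53.2 in control cells. Control lay below the offset on both arrays for 1423691_x_at and on replicate 1 for 1435989_x_at. The sizes of the log2 differences of these probe sets thus depend on the offset. In GFP-negative cells they were 4.22 ± 0.29 and 3.34 ± 0.38, but 2.80 and 2.29 with 4 times the offset.

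Krt18, the acidic partner of Krt8, showed the same order of group means with 1 probe set. Krt18 had scaled signals of 3026 and 4784 in GFP-positive cells, 2292 and 3341 in GFP-negative cells, and 211 and 249 in control cells. The lowest treated array stood far above the highest control array, while the treated fractions overlapped. The log2 difference from control was 3.89 ± 0.30 in GFP-positive cells (3.66 and 4.11 in replicates 1 and 2) and 3.43 ± 0.30 in GFP-negative cells (3.27 and 3.59). Across the 6 arrays the centred log2 profiles of Krt8 and Krt18 differed by a root mean square of 0.27.

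Krt7, the other keratin with a large difference, had scaled signals of 608 and 917 in GFP-positive cells, 539 and 774 in GFP-negative cells, and 65.7 and 136 in control cells. All 4 treated arrays were above both control arrays, and the treated fractions overlapped. The log2 difference from control was 2.62 ± 0.39 in GFP-positive cells (2.73 and 2.51 within the replicate numbers) and 2.42 ± 0.39 in GFP-negative cells (2.56 and 2.27). Its profile was the next closest to that of Krt8 among the other members, at a root mean square of 0.41.

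Krt19, a type I keratin that often accompanies Krt7 and Krt8, behaved differently. Krt19 had scaled signals of 699 and 1885 in GFP-positive cells, 801 and 1604 in GFP-negative cells, and 462 and 939 in control cells. The groups overlapped, with replicate 2 above replicate 1 in each of them. Within the replicate numbers the log2 difference was 0.57 and 0.98 in GFP-positive cells and 0.76 and 0.75 in GFP-negative cells, smaller than those of Krt7, Krt8 and Krt18. Over all arrays it was 0.78 ± 0.54 and 0.76 ± 0.54, and with 1 array left out it ran from 0.08 to 1.47 and from 0.27 to 1.24. Control cells thus already had a Krt19 signal, at a mean of 700.3 ± 337.0 (SD, n = 2).

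**Figure D2:**
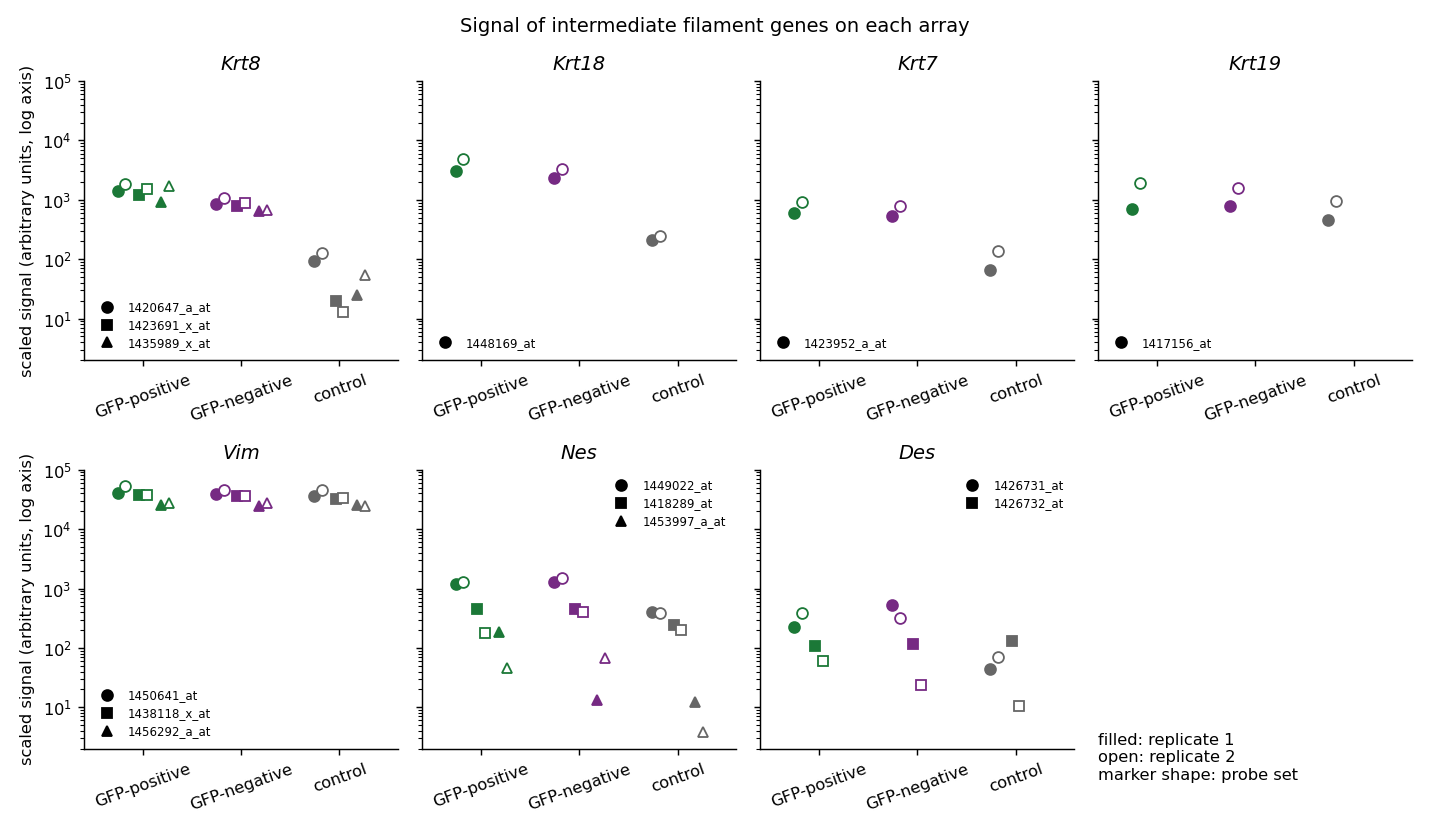
Scaled signal on a log axis for each probe set (marker shape) of the 7 genes on the 6 arrays, GFP-positive, GFP-negative and control from left to right, with replicate 1 filled and replicate 2 open. Krt8, Krt18 and Krt7 are separated from control, Krt19 is higher on replicate 2 in every group and higher in treated than control cells within each replicate number, and Vim is level.

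Among the mesenchymal filament genes, Vim showed little difference between groups on any of its 3 probe sets. Probe set 1450641_at had scaled signals of 40369 and 53040 in GFP-positive cells, 39516 and 45479 in GFP-negative cells, and 36593 and 45534 in control cells, with overlap between all groups. Probe set 1438118_x_at had 38103 and 38197 in GFP-positive cells, 35718 and 36445 in GFP-negative cells, and 32626 and 32890 in control cells. That probe set kept the groups apart, but by 0.22 ± 0.20 in GFP-positive and 0.14 ± 0.20 in GFP-negative cells on the log2 scale. The third, 1456292_a_at, ran from 24567 to 27626 over the 6 arrays, with differences of 0.09 ± 0.20 and 0.04 ± 0.20. Vim signals lie high in the range of the arrays. The highest scaled signal of any probe set was 43739 on control replicate 1 and 53482 on GFP-positive replicate 1. How well the arrays resolve differences at that height was not tested.

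Nes was higher in both treated fractions on its brightest probe set. Probe set 1449022_at had scaled signals of 1214 and 1284 in GFP-positive cells, 1287 and 1492 in GFP-negative cells, and 407 and 391 in control cells. The arrays of a group lay close together, and treated and control arrays did not overlap. The log2 difference from control was 1.57 ± 0.23 in GFP-positive cells (1.51 and 1.64 within the replicate numbers) and 1.72 ± 0.23 in GFP-negative cells (1.59 and 1.85). The second probe set, 1418289_at, did not bear this out in GFP-positive cells, with 449.9 and 178 there, 452 and 405 in GFP-negative cells, and 242 and 203 in control cells. Its log2 difference was 0.82 within replicate 1 and -0.16 within replicate 2 in GFP-positive cells, and 0.82 and 0.90 in GFP-negative cells. The third Nes probe set was too dim for the fit, at 187 and 46.5 in GFP-positive cells, 13.2 and 67.7 in GFP-negative cells, and 12.5 and 3.9 in control cells.

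The 2 probe sets of Des disagreed as well. Probe set 1426731_at had scaled signals of 224 and 391 in GFP-positive cells, 537 and 314 in GFP-negative cells, and 44.6 and 69.1 in control cells, so treated and control arrays did not overlap. The log2 difference was 1.92 ± 0.44 in GFP-positive cells (1.76 and 2.08) and 2.35 ± 0.44 in GFP-negative cells (2.91 and 1.79). Probe set 1426732_at had 108 and 60.4 in GFP-positive cells, 118 and 24.2 in GFP-negative cells, and 129 and 10.5 in control cells. It followed the replicate number rather than the group, with differences of 0.47 ± 0.88 and 0.16 ± 0.88. Which of the Des probe sets reads the transcript was not tested.

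**Figure D3:**
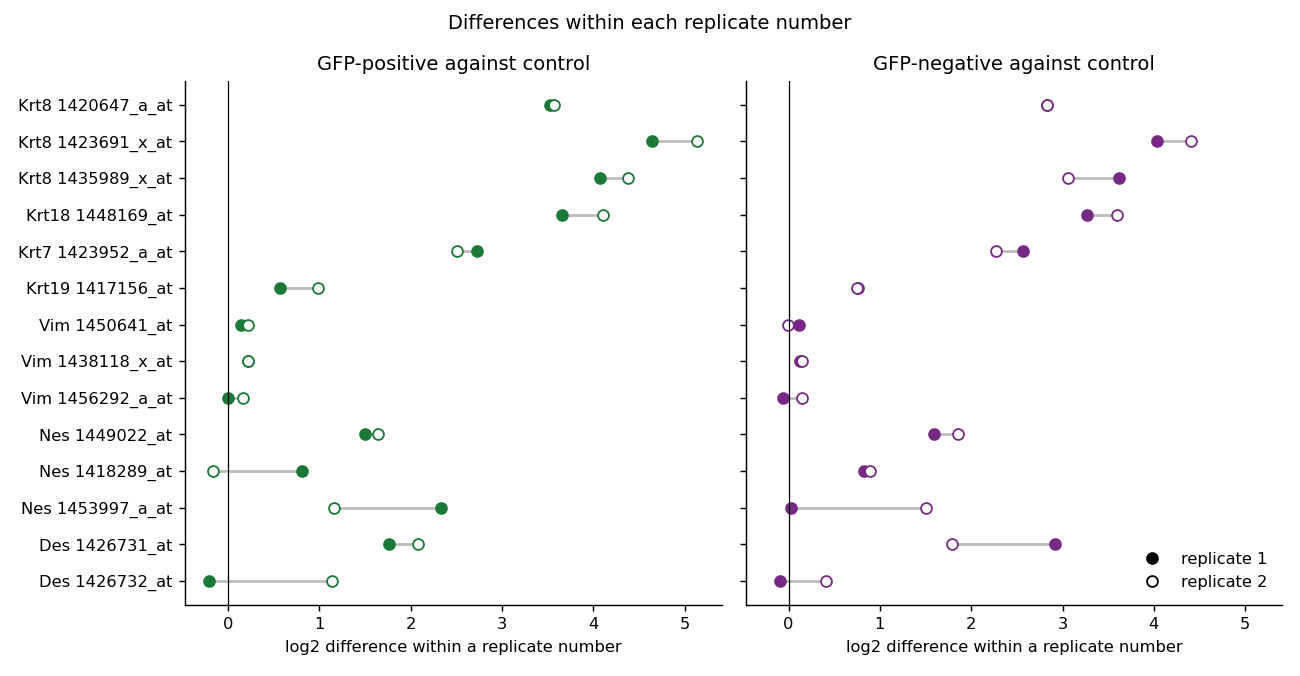
Log2 difference from control within replicate 1 (filled) and replicate 2 (open) for each of the 14 probe sets, GFP-positive cells on the left and GFP-negative cells on the right. Krt8, Krt18, Krt7, Nes 1449022_at, Des 1426731_at and, closer to 0, Krt19 stand right of 0 in both replicate numbers and both fractions, and Vim sits at 0.

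The fit over all probe sets gives the background for these values. In GFP-positive against control cells, 4 of the 13 members in the fit were called at an adjusted p of 0.05, all 3 probe sets of Krt8 and the one of Krt18, where 0.122% of all probe sets were called and 0.0888% were called as higher. In GFP-negative against control cells 3 of 13 were called, 2 of Krt8 and the one of Krt18, where 0.0296% of all were called and 0.0259% as higher. An unadjusted p under 0.05 was reached by 7 of 13 members in each comparison, against 7.04% and 5.07% of all probe sets. Both treated arrays were above both control arrays for 9 of 13 members in each comparison, against 17.3% and 15.1% of all, and no member was below, against 14.9% and 13.5%. With the replicate number as a block 8 of 13 were called in each comparison, against 6.21% and 3.57% of all. The members were chosen with these contrasts known, and both share their control arrays, so nothing is read from the counts. The counts also hang on single arrays. In GFP-positive cells 0 were called without GFP-positive replicate 2, and 1 when control replicate 1 was left out. In GFP-negative cells 0 were called without either GFP-negative array and 1 without either control array. Without both rescaled arrays 4 were called in each comparison, but each treated group was then 1 array, assumed to vary like the 2 control arrays.

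Setting the GFP-positive fraction against the GFP-negative one asks whether cells that switched the transgene back on differed from treated cells that did not. Krt8 leaned towards GFP-positive cells: on each of its 3 probe sets both GFP-positive arrays were above both GFP-negative arrays. The log2 differences were 0.72 ± 0.29 (95% interval 0.06 to 1.38) for 1420647_a_at, 0.67 ± 0.29 (-0.01 to 1.35) for 1423691_x_at and 0.88 ± 0.38 (-0.00 to 1.77) for 1435989_x_at. Within replicate 1 these were 0.70, 0.60 and 0.45 and within replicate 2 they were 0.74, 0.73 and 1.32. None passed the test in limma, with an adjusted p of 1.00 for each, and the unadjusted p-values were 0.0369, 0.0532 and 0.0507. Probe sets of 1 gene read the same RNA and are not replicates of each other.

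For the other members no difference between the sorted fractions passed the test. Krt18 differed by 0.46 ± 0.30 (95% interval -0.25 to 1.16), with 0.40 within replicate 1 and 0.51 within replicate 2. Krt7 differed by 0.20 ± 0.39 (-0.70 to 1.10), with 0.16 and 0.24. Krt19 stood at 0.02 ± 0.54 (-1.24 to 1.28), with -0.19 and 0.23. Nes 1449022_at was at -0.15 ± 0.23 (-0.68 to 0.39), the only probe set with both GFP-positive arrays below both GFP-negative arrays. The dimmer Nes 1418289_at was at -0.53 ± 0.43 (-1.52 to 0.45). Des 1426731_at was at -0.43 ± 0.44 (-1.44 to 0.58), Des 1426732_at at 0.31 ± 0.88 (-1.73 to 2.35) and the 3 Vim probe sets between 0.05 and 0.13 (intervals within -0.44 to 0.70), with signs that turned under quantile normalization. Among the 13 members 0 were called at an adjusted p of 0.05 in limma and 1 had an unadjusted p under 0.05; over all probe sets 0% passed the first and 0.625% the second. Both GFP-positive arrays were above both GFP-negative arrays for 4 members, the 3 of Krt8 and Vim 1438118_x_at, and below for 1, against 10.6% and 10% of all probe sets. With the replicate number as a block 0 members were called as well.

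**Figure D4:**
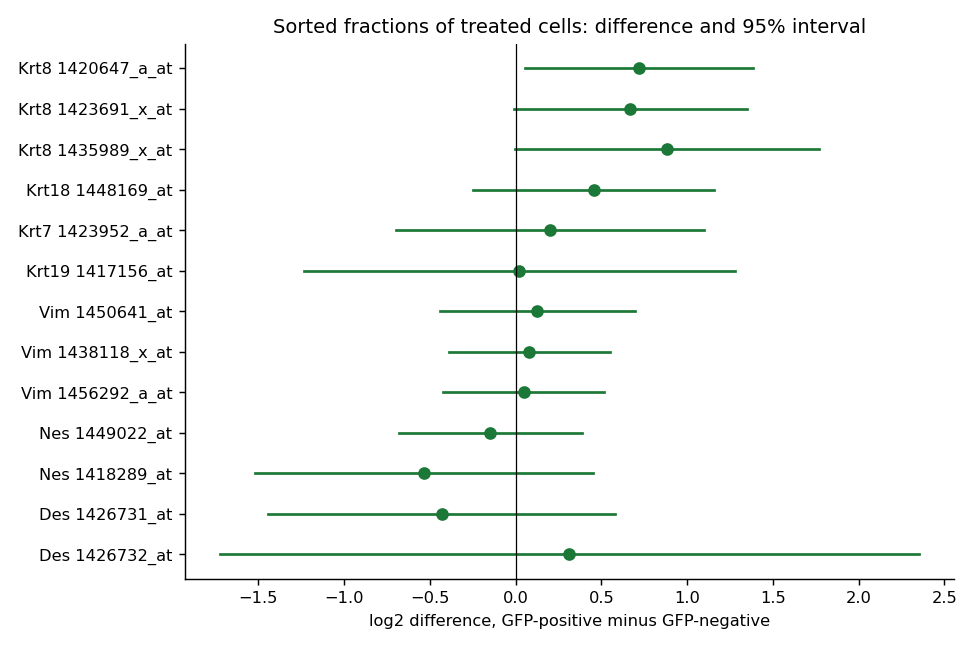
Log2 difference between GFP-positive and GFP-negative cells for the 13 member probe sets in the fit, with 95% intervals from limma (2 arrays a group). The 3 Krt8 probe sets sit at 0.67 to 0.88 and the Vim probe sets close to 0.

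Krt8 and Krt18 lie side by side on chromosome 15, with no protein-coding gene between them in the RefSeq table, at one end of the cluster of type II keratin genes in which Krt7 lies near the other end. Between Krt7 and Krt18, beside Krt8, the table lists 23 protein-coding genes, 22 of them with keratin names. This set was chosen after its values had been seen. Of the 20 with a probe set, 11 were bright enough for the fit, among them Krt5, the basic keratin of basal keratinocytes, and Krt6a, a keratin of hair follicles and wounded skin. Their log2 differences from control ran from -0.89 to 0.76 in GFP-positive cells and from -0.88 to 0.81 in GFP-negative cells, which leaves each below that of Krt7. In limma 0 of the 11 passed an adjusted p of 0.05 in either comparison, 0 had an unadjusted p under 0.05, and 0 were called without the trend. On the far side of Krt18, the next 2 genes were lower than control in both fractions by values that did not pass the test. Eif4b, a translation initiation factor, was at -0.68 ± 0.27 in GFP-positive cells (limma adjusted p = 0.626, and 0.0102 with the replicate number as a block) and -0.51 ± 0.27 in GFP-negative cells. Tns2, a tensin of focal adhesions, was at -1.20 ± 0.56 and -1.46 ± 0.56. The gene after Tns2, Spryd3, was not lower in both, at -0.06 ± 0.48 and 0.24 ± 0.48. Beyond Krt7, at the other end, Krt80 was at -0.05 ± 0.34 and 0.29 ± 0.34, and Atg101 at 0.46 ± 0.32 and 0.33 ± 0.32.

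**Figure D5:**
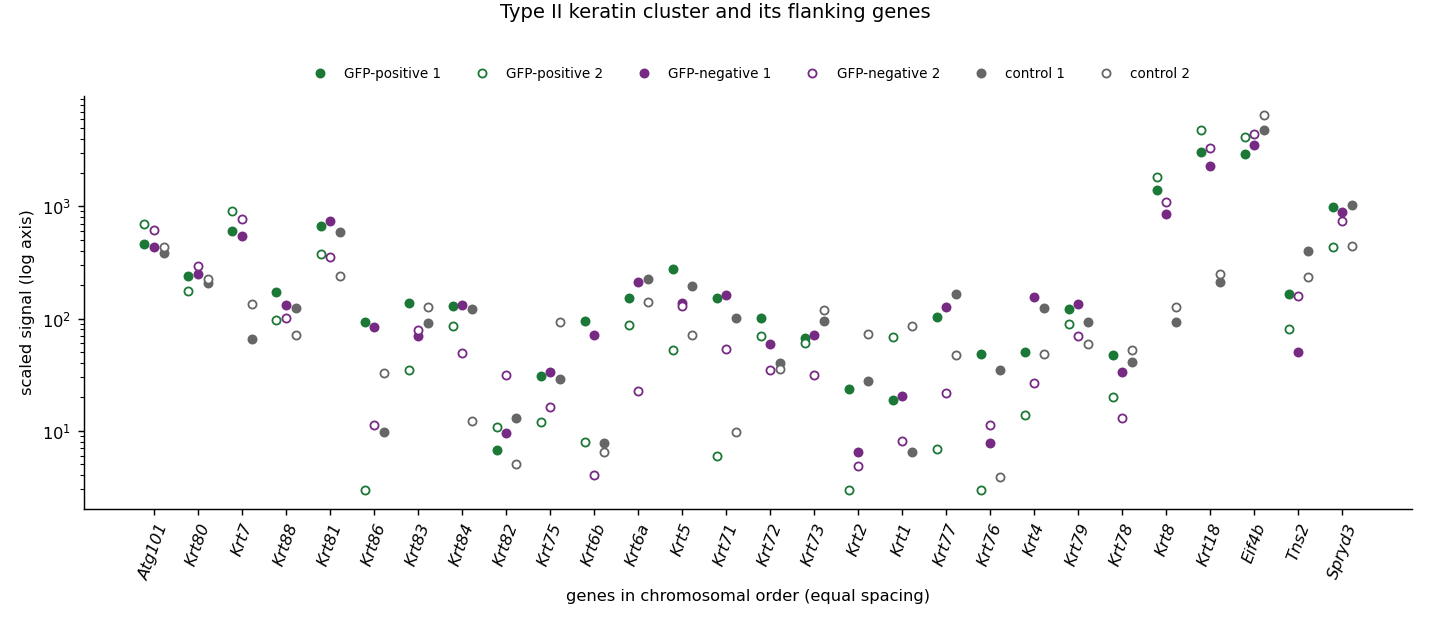
Scaled signal (log axis) of the genes from Atg101 to Spryd3 in chromosomal order on chromosome 15, drawn at equal spacing, for the 6 arrays. Krt7, Krt8 and Krt18 separate treated from control arrays. Of the keratin genes between Krt7 and Krt8, Krt81 has the highest values, from 242 to 736.

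A list of 30 further intermediate filament genes, namely other keratins, neuronal and glial filaments, lens filaments and lamins, was described in the same fit. Each gene was taken at its brightest probe set. Of these 30 genes 15 entered the fit, and 0 passed an adjusted p of 0.05 in limma in GFP-positive or GFP-negative cells against control, with 0 at an unadjusted p under 0.05 and 0 called without the trend. The median log2 difference was 0.26 and 0.27, against 0.04 over all probe sets in each comparison. Prph (peripherin, a filament of peripheral neurons) stood at 1.32 ± 0.75 in GFP-positive cells and 0.54 ± 0.75 in GFP-negative cells, and Bfsp2, a lens filament gene, at 1.07 ± 0.65 and 1.03 ± 0.65. Krt20, a keratin of gut epithelium and Merkel cells, had scaled signals of 248 and 379 in GFP-positive cells, 272 and 609 in GFP-negative cells, and 127 and 402 in control cells. Like Krt19, Krt20 was higher on replicate 2 in each group.

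Proteins that anchor, bind or chaperone filaments were described as a list of 20, all of which entered the fit. None passed an adjusted p of 0.05 in limma, in either treated fraction; 3 of 20 were higher at an unadjusted p under 0.05 in GFP-positive cells and 2 of 20 in GFP-negative cells, where 7.04% and 5.07% of all probe sets reached that p in either direction. Sfn (stratifin, an epithelial 14-3-3 protein; the 14-3-3 family binds Krt18) had 539 and 335 in GFP-positive cells, 277 and 392 in GFP-negative cells, and 161 and 5.9 in control cells. Its log2 difference was 2.45 ± 0.72 (adjusted p = 0.424 in limma) in GFP-positive cells and 2.11 ± 0.72 (0.754) in GFP-negative cells. These sizes rest on the control arrays: without control replicate 2 they were 1.25 and 0.91, and without control replicate 1 they were 3.64 and 3.30. Pkp1, a desmosomal plakophilin, had 86.3 and 573 in GFP-positive cells, 115 and 252 in GFP-negative cells, and 32.7 and 16.4 in control cells, and its log2 difference in GFP-positive cells, 2.28 ± 0.79, was 1.10 without GFP-positive replicate 2. Pnn (pinin, a keratin-binding protein of desmosomes and nuclei) was at 0.76 ± 0.28 and 0.39 ± 0.28. The list's median was 0.18 in GFP-positive and 0.12 in GFP-negative cells.

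Regulators of the epithelial and mesenchymal state were read beside the filaments. Of 18 epithelial transcription factors 16 had a probe set and 7 entered the fit. Of these, 0 passed the adjusted or unadjusted threshold of 0.05 in limma in either treated fraction. The others were too dim and were not tested. Among them, Gata3 was at 1.41 in GFP-positive and 0.78 in GFP-negative cells, Elf5 at 0.90 and 0.89, and Grhl3 at -0.06 and -0.37. Klf4, a zinc-finger factor of epidermis and stem cells, was at -0.67 ± 0.31 in GFP-positive cells and -0.34 ± 0.31 in GFP-negative cells. Klf5, its relative in proliferating epithelium, stood at 0.83 ± 0.41 and 0.54 ± 0.41, and Grhl2, a factor of simple epithelia, at 1.13 ± 0.80 and 1.44 ± 0.80. All 10 mesenchymal factors entered the fit, with medians of -0.36 and -0.14. None passed an adjusted p of 0.05 in limma. Of the 10, 3 and 1 were lower at an unadjusted p under 0.05. That p was reached by 7.04% and 5.07% of all probe sets in either direction. Prrx1, a homeobox factor of mesenchyme, had scaled signals of 3193 and 3110 in GFP-positive cells, 4131 and 3912 in GFP-negative cells, and 6275 and 6484 in control cells, in 3 steps without overlap. Its log2 difference was -1.01 ± 0.19 (adjusted p = 0.158 in limma) and -0.66 ± 0.19 (0.609). Tcf4 was at -0.97 ± 0.33 and -0.74 ± 0.33, and Twist1, a factor of mesenchymal cells, at -0.88 ± 0.33 and -0.75 ± 0.33. Not all of the 10 were lower: 1 had a positive difference in GFP-positive cells and 4 in GFP-negative cells. Zeb1 was at -0.12 ± 0.27 and 0.21 ± 0.27, and Foxc2 at 0.06 ± 0.27 and 0.28 ± 0.27.

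Markers of other cell types that make simple keratins, desmin or nestin were measured beside the members. For keratinocytes, 12 of 13 markers had a probe set and 6 entered the fit, with 0 called in limma. In GFP-positive and GFP-negative against control cells, 2 and 1 of the 6 were higher at an unadjusted p under 0.05. That p was reached by 7.04% and 5.07% of all probe sets in either direction. Sfn, given above, is on this list too. The summed scaled signal of the keratinocyte markers was 1632 and 1259 in GFP-positive cells, 1150.4 and 1258 in GFP-negative cells, and 1169 and 678 in control cells. No marker was listed at 0, but Krt15 and Col17a1 of basal keratinocytes were at most 15.9 on every array. Krt14 was between 15.8 and 103, and its highest values in control (103) and GFP-negative cells (100.2) were close. Cdh1 and Itgb4, also too dim for the fit, were above control in GFP-positive cells and overlapped it in GFP-negative cells. In GFP-positive cells Cdh1 had 36.5 and 75.2, against 15.4 and 17.4 in control. Itgb4 had 19.1 and 22.8, against 12.8 and 10.5. Perp, a desmosome and p53 target gene of that list, was at 1.53 ± 0.49 in GFP-positive and 1.08 ± 0.49 in GFP-negative cells, and Dsc3, a desmosomal cadherin, at -1.05 ± 0.71 and -0.04 ± 0.71. The 8 Merkel cell markers, of which 4 entered the fit, summed to 1031 and 686 in GFP-positive cells, 1065 and 991 in GFP-negative cells, and 886 and 823 in control cells. These sums hide opposite directions. Piezo2 was at -0.91 ± 0.47 in GFP-positive and -0.28 ± 0.47 in GFP-negative cells. Too dim for the fit, Insm1 was at 0.98 and 1.28, Chga at 1.35 and 0.78, and Isl1 at -0.59 and -0.21. The 11 simple epithelial markers, of which 6 entered, summed to 1414 and 1052, 859 and 846, and 923 and 574 in the same order of groups. Of those 6, 5 had positive differences in GFP-positive cells and 2 in GFP-negative cells, and the median was 0.64 and -0.12. Above both control arrays were 4 and 1 of the 6, against 17.3% and 15.1% of all probe sets. The 7 mesothelial markers, of which 2 entered, summed to 776 and 418, 700.5 and 543, and 535 and 297. In these 3 lists 0 markers were called in limma. At an unadjusted p under 0.05, Cldn4, a claudin of tight junctions, was higher in both fractions (1.68 ± 0.59 and 1.57 ± 0.59) and Msln, the mesothelial surface protein mesothelin, in GFP-negative cells (1.90 ± 0.77). Other markers of these lists leaned lower in both fractions. Epcam of the simple epithelial list was at -0.43 ± 0.44 and -0.15 ± 0.44. Of the mesothelial list, and too dim for the fit, Wt1 was at -0.34 and -0.83 and Muc16 at -0.31 and -0.85. The part of these cell types in the keratin signals was not tested.

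For muscle, all 11 skeletal markers had a probe set and 7 entered the fit, with 0 called in limma. In GFP-positive and GFP-negative cells 2 and 1 of the 7 were higher at an unadjusted p under 0.05. That p was reached by 7.04% and 5.07% of all probe sets in either direction. The summed signal of the skeletal markers was 14317 and 13543 in GFP-positive cells, 14129 and 17196 in GFP-negative cells, and 5224 and 9911 in control cells, most of it Acta1, the actin of skeletal muscle. Acta1 had 12483 and 12559 in GFP-positive cells, 12256 and 16264 in GFP-negative cells, and 4084 and 9193 in control cells, and differed from control by 1.03 ± 0.37 and 1.20 ± 0.37. Chrna1, a subunit of the muscle acetylcholine receptor, was at 1.47 ± 0.44 and 0.80 ± 0.44, and Actc1, the cardiac actin, at 0.75 ± 0.59 and 1.09 ± 0.59. With 1 array left out Actc1 ran from 0.05 to 1.45 and from 0.45 to 1.73, and Acta1 from 0.44 to 1.61 and from 0.62 to 1.78. The rest of this list in the fit stood closer to control. Mylpf was at 0.36 ± 0.38 and 0.16 ± 0.38, and Ttn at 0.15 ± 0.62 and 0.22 ± 0.62. Ckm was at -0.07 ± 0.87 and 0.20 ± 0.87, and Myod1 at -0.09 ± 0.76 and -0.55 ± 0.76. The list's median was 0.36 in GFP-positive and 0.22 in GFP-negative cells. Myog, the myogenic factor of differentiating muscle, was too dim for the fit. The 7 smooth muscle markers summed to 104729 and 123984, 105227 and 111761, and 80499 and 118770 in the same order of groups, with 0 called in limma. The 5 Schwann and neural crest markers with a probe set summed to 882 and 499.7, 1031 and 399, and 868 and 380.2, and the 7 endothelial markers to 613 and 311, 601 and 346, and 610.0 and 629, again with 0 called. In these last 3 lists 0 markers had an unadjusted p under 0.05 against control. Their part in the Des and Nes signals was not tested.

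Fibroblast markers had lower values in treated cells. The 12 fibroblast markers summed to 110580 and 87991 in GFP-positive cells, 122006 and 98533 in GFP-negative cells, and 165341 and 151724 in control cells, without overlap between treated and control arrays. In limma 0 passed an adjusted p of 0.05. Of the 12, 7 and 5 were lower at an unadjusted p under 0.05. That p was reached by 7.04% and 5.07% of all probe sets in either direction. Lum, a matrix proteoglycan, had 291 and 93.0 in GFP-positive cells, 274 and 51.6 in GFP-negative cells, and 2320 and 934 in control cells. Its log2 difference was -2.92 ± 0.73 (adjusted p = 0.312 in limma) and -3.25 ± 0.73 (0.387). Fap, a protease on the surface of activated fibroblasts, was at -2.02 ± 0.47 and -1.33 ± 0.47. Prrx1, given above, is also on this list.

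The genes whose pattern over the 6 arrays was closest to that of Krt8 were found by the root mean square difference between centred log2 profiles. In order these were Afp, the fetal serum protein alpha-fetoprotein, at 0.25, Noct (nocturnin) at 0.40, Cd80, a ligand of T cell costimulation, at 0.45, Ankrd1, a cardiac ankyrin repeat protein, at 0.46 and Serpinb2, an inhibitor of plasminogen activators, at 0.53. For Krt18 they were Serpinb2 at 0.41, Afp at 0.47, Cd80 at 0.56, Noct at 0.61 and Gtsf1, a piRNA pathway factor of the germ line, at 0.64. Afp had scaled signals of 309 and 433 in GFP-positive cells, 222 and 221 in GFP-negative cells, and 1.3 and 29.4 in control cells, the same order of groups as Krt8. Serpinb2 had 549 and 1648 in GFP-positive cells, 438 and 1347 in GFP-negative cells, and 40.5 and 62.9 in control cells, and like Krt18 was above on replicate 2 in each group. The control signals of Afp lie below the added offset, and the order depends on that offset. With 0.25 times the offset Afp ranked 5 for Krt8 and 4 for Krt18, and with 4 times the offset it ranked 11 and 23. Noct ranked 4 and 1 for Krt8, and Serpinb2 ranked 1 and 2 for Krt18, under these offsets, and 2 of the 5 named genes stayed among the nearest 5 in each case. These offsets were tried for the ranking after seeing the data. The genes were picked for their likeness over the same arrays, so no test is given.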

How the data were processed

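Total RNA of 6 fibroblast samples, 2 each of GFP-positive, GFP-negative and control cells, was measured on Affymetrix mouse arrays. The deposited intensity values are 1 linear signal per probe set and array, made with MAS5 per the submitters' processing notes. The MAS5 version is not given in the sources used here. Groups and replicate numbers follow the sample titles. Each array was scaled here to a 2% trimmed mean of 500, 64 control probe sets were left out of 45101, and 45037 remained, of which 34945 had 1 gene symbol, 932 several and 9160 none here. Symbols were updated through gene identifiers in the RefSeq table. Probe sets with a mean scaled signal at or above the 40th percentile (67.7) were kept. Before log2, 30.6 was added to each value, the median of the 6 arrays' 25th percentiles.

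Fits used limma 3.58.1 in R 4.3.3 over all 6 arrays, with a mean-variance trend, 3 residual degrees of freedom, two-sided moderated tests and Benjamini-Hochberg adjustment over the 27022 kept probe sets; adjusted p under 0.05 was called. The replicates are called biological in the labels, which name no separate animals or cultures, so the p-values cover only the spread between these arrays, which may be technical. The number of arrays limits the precision.

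The members and lists were chosen with earlier results of these data known. Every member is given at every probe set. Other list genes are at their brightest probe set. Those named are among the 4 of smallest p in their list, with the following exceptions. Krt5, Krt6a, Krt14, Krt15, Krt80, Col17a1, Myog, Myod1, Ttn, Ckm, Dcn and Col1a2 were singled out after their values were seen. So were Cdh1, Itgb4, Epcam, Wt1, Muc16, Insm1, Chga, Isl1, Gata3, Elf5, Grhl3, Zeb1 and Foxc2. The 5 nearest genes to Krt8 and Krt18 exclude members and clone-type symbols. The alternatives left out each array, used the replicate number as a block, dropped the trend, fitted only the groups compared, or changed the offset, the filter or the scaling (median centring, quantile normalization). Leaving out both rescaled arrays, and other offsets for the likeness ranking, were added after seeing the data.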

Additional observations from a re-analysis of the deposited data

How the results depend on the processing

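There were 2 arrays a group, and the calls changed with the processing. The 4 members called in GFP-positive against control cells were 0 without a trend, 8 with the replicate number as a block, 8 with the block and quantile normalization, and 0 to 4 when 1 array was left out; 12 of 17 alternatives gave a count within 1.5 times. The 3 called in GFP-negative against control cells were 1 with median centring, the stricter filter or only the groups compared, 0 without a trend, 8 with the block, 8 with the block and quantile normalization, 4 without both rescaled arrays, and 0 to 2 when 1 array was left out; 7 of 17 were within 1.5 times. The block added Krt7, Krt19, Nes 1449022_at and Des 1426731_at in both comparisons, and Krt8 1435989_x_at in the second. Of the lists it called, in GFP-positive and GFP-negative cells, 9 and 7 of 12 fibroblast markers and 4 and 2 of 10 mesenchymal factors as lower. As higher it called 5 and 3 of 20 linkers, 2 and 1 of 6 keratinocyte and 2 and 2 of 7 skeletal muscle markers. Of all probe sets, 6.21% and 3.57% were called with the block. Prrx1 is counted among both fibroblast markers and mesenchymal factors, and Sfn among both linkers and keratinocyte markers. Klf4 and Eif4b were called as lower in GFP-positive cells. Deviations from the group means correlated at 0.51 to 0.56 between arrays of the same number, but the labels name nothing that such arrays share, so this is a hint from the data and not the design. The counts of 0 in GFP-positive against GFP-negative cells and among the other filament genes held under all 17 alternatives. The cause of these shifts was not tested.

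In GFP-positive against GFP-negative cells, where no member passed the test, some values changed sign. Quantile normalization, with and without the block, gave -0.02 for Vim 1450641_at, -0.05 for 1438118_x_at and -0.02 for 1456292_a_at. With 1 array left out, Krt7 ran from -0.08 to 0.49, Krt19 from -0.68 to 0.72, Vim 1450641_at from -0.07 to 0.32, Vim 1456292_a_at from -0.03 to 0.12, Nes 1418289_at from -1.14 to 0.07 and Des 1426732_at from -0.41 to 1.03. Without both rescaled arrays Krt19 was at -0.19 and Des 1426732_at at -0.10. The Krt8 and Krt18 differences kept their sign under all 17.

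Against control with 1 array left out, Des 1426732_at ran from -0.51 to 1.45 in GFP-positive and -0.82 to 1.13 in GFP-negative cells, Nes 1418289_at from -0.28 to 0.93 in GFP-positive cells, and Vim 1450641_at from -0.02 to 0.38 and from -0.10 to 0.21. Of the list genes, Krt20 ran from -0.36 to 1.10 and Grhl2 from -0.07 to 2.34 in GFP-positive cells. In GFP-negative cells Prph ran from -0.37 to 1.45, Klf4 from -0.72 to 0.04, Klf5 from -0.00 to 1.08 and Dsc3 from -0.57 to 0.49. Without both rescaled arrays Klf4 was at 0.04 and Dsc3 at 0.49.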
